A study of Mus musculus with 4 samples.

Results

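Chromosome 16 held 993 of the 30763 eIF4A3 peaks in a list made by enhanced crosslinking and immunoprecipitation (eCLIP), and all peaks listed on that chromosome were taken. The method marks where a protein touches RNA in cells irradiated with ultraviolet light. The study used J1, a mouse embryonic stem cell line of strain 129S4/SvJae, kept off feeder layers in medium with serum and leukemia inhibitory factor, and irradiated with 400 mJ/cm2 at 254 nm. Of its 4 libraries, 2 were pulled down with an antibody to eIF4A3 and 2 were input libraries made without antibody, and both pairs are called biological replicates in the labels. The list gives 1 fold change and 1 p-value per peak, both the authors' own, so no spread between replicates and no read depth stands behind any value below. No RNA level is given either, so a gene without peaks cannot be told apart from a gene with little RNA.

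eIF4A3 is a DEAD-box RNA helicase that clamps RNA inside the exon junction complex. Splicing deposits this complex on the mRNA a short way upstream of each exon junction, and the first round of translation is known to strip it off. Last exons and genes of a single exon have no junction downstream, so the textbook model places no complex at their 3′ ends.

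The peaks are on the mouse build mm9 and the exon models, from GENCODE M21, are on GRCm38. Along chromosome 16 the annotation could be laid over the list after a constant shift per stretch. For each stretch the shift was the one at which most peaks lay wholly inside an exon of a protein-coding transcript on the same strand, out of 600001 shifts tried. Peaks fell into 7 such stretches. From 3746422 to 4907485 the shift was 0, with 36 of 38 peaks inside exons. It was -93 nt from 5013564 to 18951413 (273 of 306 peaks), -73 nt from 20154210 to 23127799 (185 of 194), -86 nt from 29579596 to 37074033 (125 of 154), -113 nt from 44356260 to 52135989 (25 of 29) and -245 nt from 72904907 to 93862898 (124 of 138). Beyond 94592397 the shift was much larger, -221607 nt, with 71 of 85 peaks inside exons. In every stretch a single shift stood alone at the top, and moving it by 1 nt either way took peaks out of exons, as the plot of peaks by shift shows. The remaining 49 peaks lay where one shift gives way to the next and were not placed. Of these 49, 25 were at 8-fold or more, beside 33.7% of all 993 peaks of the chromosome and 32.3% of the whole series. The median fold change of the unplaced peaks was 8.07, beside 6.60 for all peaks of the chromosome. How finely the chromosome is divided and which peaks stay unplaced rest on search settings that were chosen after trying several on these peaks. Costs of 2 or 2.5 peaks for a change of shift gave the same 7 shifts with 79 peaks unplaced, and a cost of 1.5 gave 12 stretches, one of them with an isolated shift far from those on either side. All positions printed here are those of the list, on mm9.

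**Figure D1:**
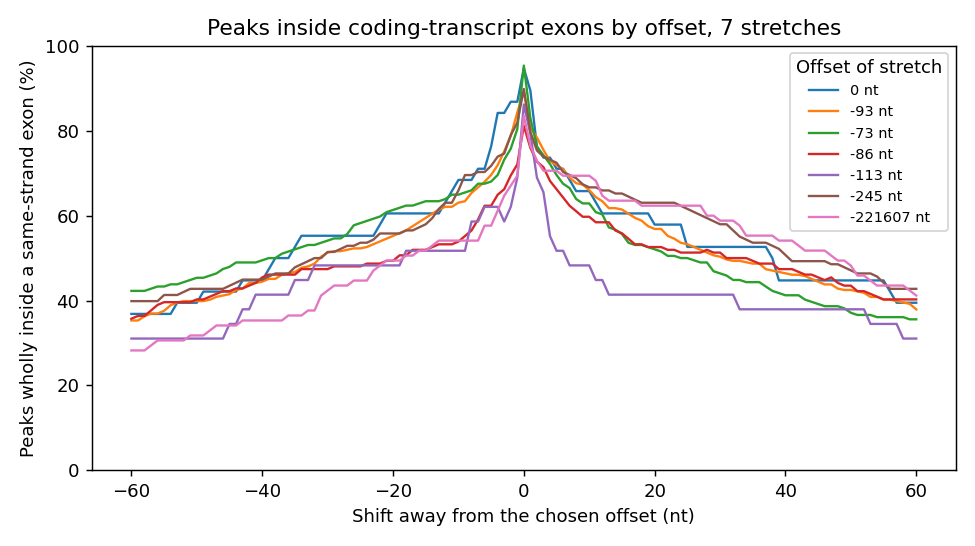
Share of peaks (y axis, percent) wholly inside a same-strand exon of a coding transcript as the annotation is moved away from the chosen shift (x axis, nt), with 1 line for each of the 7 stretches. Every line has its maximum at 0 and falls at 1 nt to either side.

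Because the shift was chosen to put peaks into exons, the exon share of the same peaks is no finding. That share was 98.2% of the 944 placed peaks (927 peaks, at least 1 nt of overlap), or 93.4% if the 49 unplaced peaks are counted as outside exons. The strands give a share less bound to the choice, although the search settings had been chosen with both strands in view, and peaks between differing shifts are again left out. With shifts taken from plus-strand peaks alone, 327 of 351 minus-strand peaks (93.2%) overlapped an exon by at least 1 nt, and 289 (82.3%, Wilson 95% interval 78.0 to 86.0%) lay wholly inside one. With shifts from the minus strand, 420 of 430 plus-strand peaks (97.7%) overlapped an exon and 359 (83.5%, interval 79.7 to 86.7%) lay wholly inside. On the opposite strand, 1 of 944 placed peaks (0.106%) overlapped an exon of a coding transcript. Peaks of a gene are not independent of each other, so these intervals cover counting error only and are too narrow for other uses.

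Exon stretches from 6 peaks show what the placed list looks like at the level of bases. The first 4 are from among the 5 genes with the most peaks on the chromosome, at their strongest peak that lay wholly inside a coding exon and was centred within 50 nt of its 3′ end. Each line gives the end of an exon, 5′ to 3′, as in the GENCODE M21 transcript, with the exon junction directly after the last letter. Capitals mark only the 1 peak named, and lower-case bases can lie in other peaks. In Brwd1 all bases shown lay in peaks, since abutting peaks covered the whole of exon 19. In Clcn2 exon 5 another peak stopped 1 nt before the exon end.
Brwd1 exon 19: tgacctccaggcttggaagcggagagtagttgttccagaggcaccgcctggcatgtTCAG
Prkdc exon 25: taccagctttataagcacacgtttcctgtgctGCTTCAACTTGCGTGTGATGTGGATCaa
Ttc3 exon 14: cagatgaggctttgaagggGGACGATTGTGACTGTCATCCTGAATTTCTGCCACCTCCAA
Clcn2 exon 5: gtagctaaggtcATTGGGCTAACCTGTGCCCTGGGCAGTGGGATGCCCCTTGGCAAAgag
The Prkdc peak, at chr16:15690477-15690502 on the plus strand with a fold change of 12.7, stopped 2 nt before the end of its exon. The Clcn2 peak, at chr16:20712730-20712774 on the minus strand with a fold change of 23.4, stopped 3 nt before it. The Ttc3 peak (chr16:94633690-94633730, plus strand, fold change 10.3) and the Brwd1 peak (chr16:96266071-96266074, minus strand, fold change 10.8) ran to the last base of their exons. The letters are those of the reference transcripts and were not compared with mm9 or with the J1 genome.

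A further pair shows the strongest peak of the chromosome and the strongest peak in a last exon. The Cdc45 line is the whole of exon 3, which is 60 nt long, and the Golgb1 line is the first 40 nt of its last exon, directly downstream of a junction.
Cdc45 exon 3: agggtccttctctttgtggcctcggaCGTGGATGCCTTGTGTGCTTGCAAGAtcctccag
Golgb1 exon 21: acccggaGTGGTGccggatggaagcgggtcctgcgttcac
The Cdc45 peak, at chr16:18811406-18811431 on the minus strand, had a fold change of 53.5 and ended 8 nt before the junction. Another peak in Cdc45 exon 3 began after the first 3 nt of the exon, among the lower-case bases. The Golgb1 peak, at chr16:36931916-36931921 on the plus strand, had a fold change of 26.2 and began after the first 7 nt of the exon.

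Most placed peaks lay in coding sequence, as far as shifts chosen to put peaks into exons of coding transcripts can show. Of 944 placed peaks, 833 (88.2%, Wilson 95% interval 86.0 to 90.1%) were in coding sequence of 1 chosen transcript per gene, 81 (8.58%) in a 5′ untranslated region and 1 in a 3′ untranslated region. A further 12 overlapped exons of other coding transcripts only, 5 lay in exons of non-coding transcripts and 12 in introns of coding genes. In the 118 genes with a peak in the chosen transcript, the 3′ untranslated region made up 32.2% of exon bases and held 0.109% of the 915 peaks in those transcripts. The 5′ untranslated region made up 4.57% of bases and held 8.85% of peaks, and coding sequence made up 63.2% of bases and held 91.0%. The median fold change was 6.05 for peaks in 5′ untranslated regions and 6.72 for peaks in coding sequence.

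Last exons were almost free of peaks. They made up 36.9% of the exon bases of these genes and held 8 of 915 peaks (0.874%), against 793 in internal exons, with 57.6% of bases, and 114 in first exons, with 5.51%. Expressed per length, this was 0.0413 peaks per kb in last exons, 2.63 in internal exons and 3.95 in first exons. Counted per exon the gap was smaller. A peak was found in 6 of 118 last exons (5.08%), 12 of 118 exons next to the last (10.2%) and 26.0% of all internal exons. The part of the fall in peaks along the mRNA, described below, in the low count of last exons was not tested. The 8 peaks came from 6 genes. Coro7, which codes for an actin-binding coronin, Usp7, a deubiquitinating enzyme, Tfrc, the transferrin receptor, and Golgb1, a Golgi matrix protein, had 1 each. Smpd4, a neutral sphingomyelinase, and Senp2, a SUMO protease, had 2 each. All 8 began within 47 nt of the first base of the exon, on the side of the upstream junction, and in last exons of at least 150 nt no base of the last 150 was covered by a peak.

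**Figure D2:**
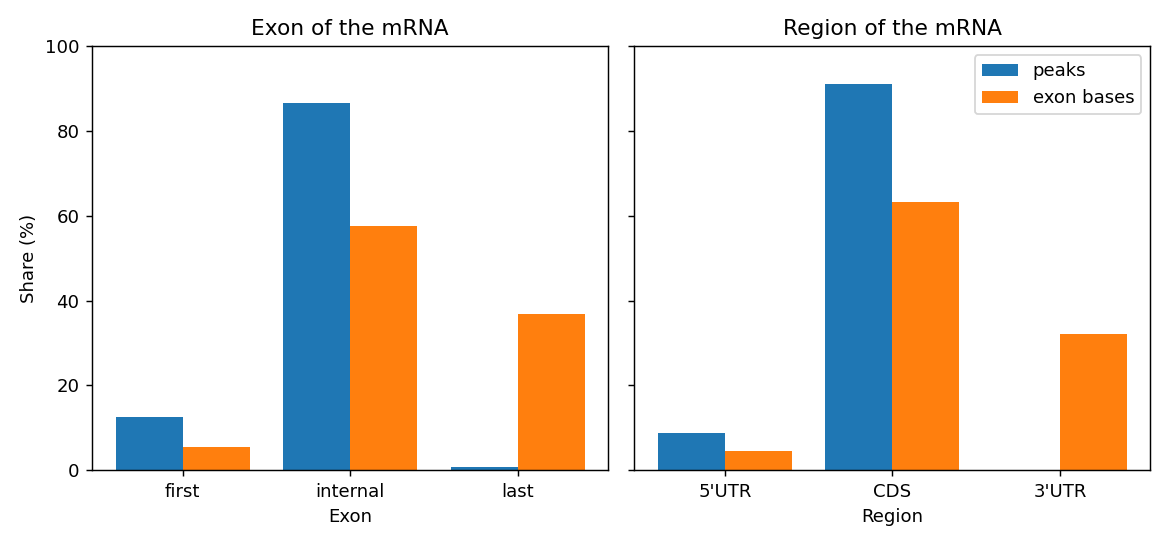
Share of the 915 peaks placed in chosen transcripts (blue bars) and of the exon bases of the same 118 genes (orange bars), by exon (left) and by region of the mRNA (right), in percent. Last exons and 3′ untranslated regions hold 36.9% and 32.2% of the bases and under 1% of the peaks.

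In exons followed by a junction, peaks gathered towards the 3′ end. The centre of 485 of 907 peaks (53.5%, Wilson 95% interval 50.2 to 56.7%) lay within the last 50 nt of the exon, a window that held 27.9% of the bases of the same 614 exons, and 41.1% were centred in the first 50 nt. Since peaks fell in short exons too, the closer comparison is even placement of each peak along its own exon. Of the 819 peaks wholly inside their exon, 449 (54.8%) were centred in the last 50 nt, where even placement would give 39.4%. With each peak placed by the shift of the other strand, 389 of 728 (53.4%) were centred there. For the 793 peaks of internal exons the share in the last 50 nt was 53.6%, with 45.4% in the first 50 nt. For the 114 peaks of first exons these shares were 52.6% and 11.4%. Even placement, taken over peaks wholly inside their exon, would give 42.1% in the last 50 nt of internal exons and 19.5% in first exons. Counted every 10 nt upstream of the junction for these 819 peaks, centres were most frequent at 20 to 29 nt, with 129 peaks. There were 54 peaks at 0 to 9 nt, 91 at 10 to 19 nt, 105 at 30 to 39 nt, 70 at 40 to 49 nt and 57 at 50 to 59 nt, while each class from 60 to 99 nt held 29 to 31. The width of a peak that lies wholly inside its exon limits how near to the end its centre can be. The median width of those centred in the last 50 nt was 35 nt, and the part of that condition in the low counts nearest to the junction and in the place of the maximum was not tested. Exons shorter than 50 nt lie wholly within the window, so the share was also taken in long exons. In exons of at least 100 nt, 46.4% of 586 peaks were centred in the last 50 nt, where even placement would give 24.99%. In exons of at least 150 nt, 150 of 357 peaks (42.0%) were centred in the last 50 nt, where even placement along the same exons would give 17.1%, and 79 (22.1%) in the first 50 nt. In exons of at least 200 nt the figures were 34.8% of 155 peaks, against 11.1% for even placement.

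The share was above that of even placement in each of the 7 stretches and on both strands. In exons of at least 150 nt, the share in the last 50 nt ranged over the 7 stretches from 33.3% of 15 peaks where the shift was 0 to 47.0% of 66 peaks where it was -245 nt, and even placement would give 18.2% and 17.1% there. Plus-strand peaks gave 41.5% and minus-strand peaks 42.7%. At the distal end, where the shift was far from 0, it was 39.3% of 28 peaks. No test was run over peaks, because peaks of a gene are not replicates.

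Base by base, coverage rose upstream of junctions and dropped at them. Over 1064 junctions of these genes that had at least 100 nt of exon on both sides, a peak covered the base 27 nt upstream at 175 junctions (16.4%), which was the maximum. The last base before the junction was covered at 5.36% of them and the first base after it at 6.11%. Coverage had a second, lower rise to 9.30% at 8 nt downstream. It averaged 14.3% over the 50 nt upstream of the junction and 6.76% over the 50 nt downstream. Farther away the averages were 8.91% from 51 to 100 nt upstream and 6.87% at the same distance downstream.

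**Figure D3:**
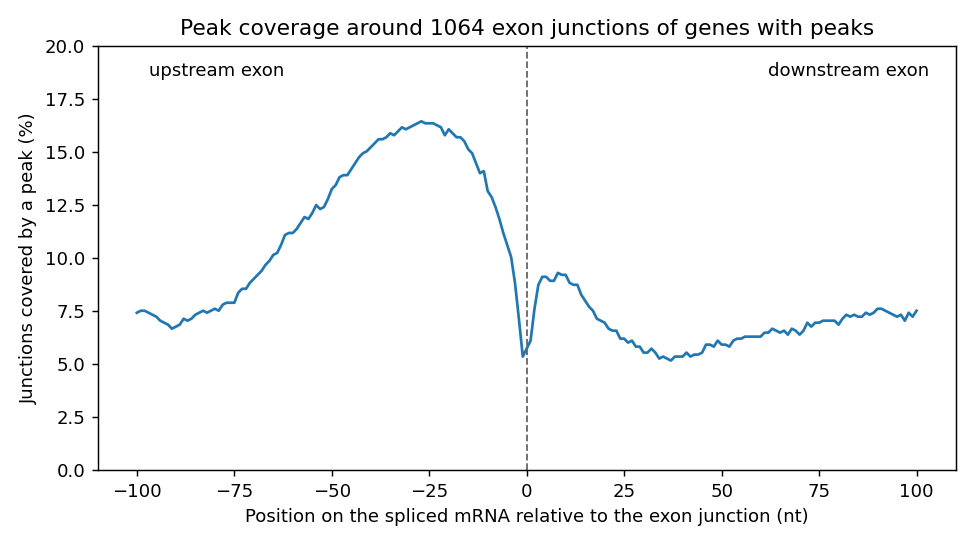
Share of 1064 exon junctions (y axis, percent) at which a base of the spliced mRNA was covered by a peak, by distance from the junction (x axis, nt, negative upstream). Coverage is highest 27 nt upstream, at 16.4%, drops at the junction itself and has a lower maximum of 9.30% 8 nt downstream.

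Many peak edges lay at exon ends. The shifts were chosen to keep peaks inside exons, which favours edges on exon ends and few beyond them, and the same holds for the drop in coverage at the junction. Of 907 peaks in exons followed by a junction, 129 ended exactly on the last base of the exon, 297 (32.7%) within 5 nt of it, and 19 ran past it, 12 of them by 1 nt. At the other end, 104 began on the first base of the exon, 265 (29.2%) within 5 nt of it, and 70 began before it, 45 of them by 1 nt. With each peak placed by the shift of the other strand, 226 of 728 peaks (31.0%) ended within 5 nt of the exon's last base, 88 of them exactly on it, and 47 ran past it. In that placement 202 (27.7%) began within 5 nt of the first base. Such edges often came in pairs. Of 297 peaks that stopped within 5 nt of an exon's 3′ end, 195 (65.7%) were met by a peak that began within 5 nt of the start of the next exon. Joining peaks separated by at most 5 nt along the spliced mRNA turned the 915 peaks into 547 sites. Their median width was 53 nt, and 152 (27.8%) spanned a junction. The centre of 275 sites (50.3%) lay within 50 nt upstream of the nearest junction, that of 156 (28.5%) within 50 nt downstream, and 114 were farther away. How the peak caller treats reads that cross a junction is not given in the sources used here, and its part in the paired edges was not tested.

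The share of exons with a peak fell along the mRNA from the 5′ to the 3′ end. In 111 genes with peaks and at least 8 exons, the exons before the last one were split by order into 3 parts. In the 5′ part 358 of 759 exons (47.2%) had a peak, in the middle part 160 of 727, and in the 3′ part 88 of 683 (12.9%). Exon 1 had a peak in 67 of the 111 genes (60.4%), exon 2 in 63 (56.8%) and exon 3 in 49 (44.1%). Counting back from the last exon, the exon next to it had a peak in 12 genes (10.8%), the one before it in 12 and the next one upstream in 13 (11.7%). The median length was 192 nt for exon 1, 123 nt for exon 2, 108 nt for exon 3 and 117 nt for the exon next to the last. Where peaks were called, their fold change changed little along the mRNA, with medians of 6.72, 6.78 and 6.40 in the 3 parts. The list holds no peak of the chromosome under 4-fold, so these medians cover only peaks at or past that level. Whether enrichment below it changed along the mRNA was not tested. The median −log10 p was 9.95 in the middle part and 8.21 in the 3′ part. Read coverage along these mRNAs is not in the list, and its part in the fall and that of exon length were not tested.

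**Figure D4:**
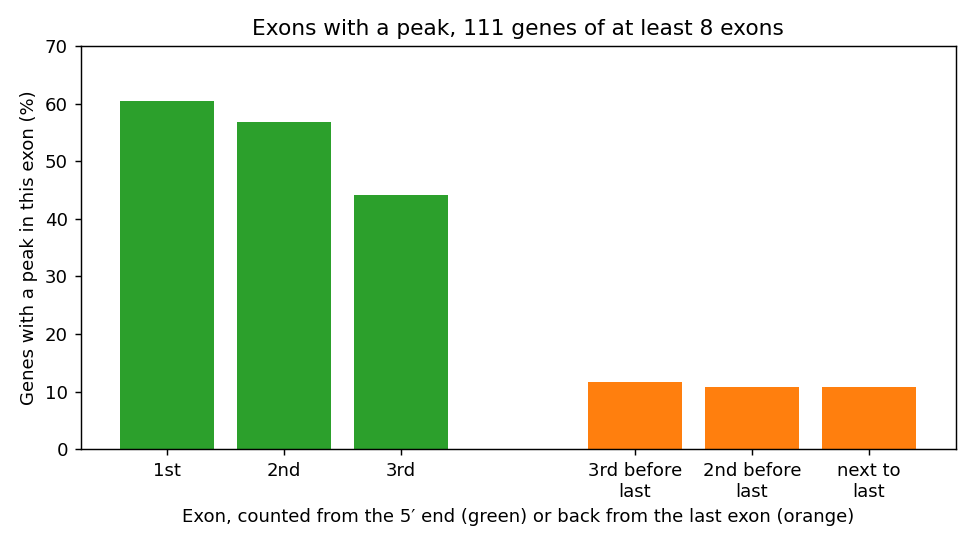
Share of 111 genes with peaks and at least 8 exons (y axis, percent) that had a peak in the exon named on the x axis, counted from the 5′ end (green) or back from the last exon (orange). The first 3 exons lie between 44.1% and 60.4% and the 3 exons before the last between 10.8% and 11.7%.

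Longer exons had a peak more often. Of all 2205 exons before a junction in genes with peaks, 614 (27.8%) had a peak. The share was 19.1% of 89 exons under 50 nt, 26.4% of 644 from 50 nt to under 100 nt, and 25.6% of 750 from there to under 150 nt. It was 31.1% of 440 exons from 150 nt to under 200 nt, 31.1% of 196 from there to under 300 nt and 43.0% of 86 longer ones. The mean number of peaks per exon was 0.382 from 50 nt to under 100 nt and 0.767 in the longest class. First and internal exons are pooled here. Exon 1 had a median length of 192 nt and a peak in 60.2% of cases, while exons from exon 4 on had 121 nt and 23.1%. The part of exon order in the shares by length was not tested. Son, which codes for a splicing cofactor of nuclear speckles, shows how a very long exon was used. Its exon 3 has 5970 nt and carried 1 peak, which began on the first base of the exon.

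Peaks were spread unevenly over genes. The 118 genes were 17.9% of the 661 protein-coding genes annotated on the chromosome. The median was 4 peaks per gene, 22 genes had 1 peak, and the 32 genes with at least 10 peaks held 609 of 915 peaks (66.6%). Genes with peaks had a median of 18 exons (quartiles 12 and 23) and those without, within the same stretches, a median of 5 (quartiles 3 and 9). At least 1 peak was found in 105 of 423 genes with more than 1 exon that lay wholly within a stretch, and in 0 of 53 genes whose coding transcripts all had a single exon, which allows a share of up to 5.66%. Of those 53 genes, 22 code for keratin-associated proteins of hair and 17 carry provisional names. The other 14 were Ccdc54, Cebpd, Cldn17, Cldn5, Cldn8, Fam243, Fam43a, Olig1, Prm3, Rimbp3, Teddm3, Tssk1, Tssk2 and Wdr5b. Expression was not measured here, so the 0 cannot be told apart from absent RNA.

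By role, genes were read from lists chosen with earlier results of these data known, and list counts stand beside 118 of all 661 coding genes (17.9%), or 105 of the 476 within stretches (22.1%). RNA and translation factors had peaks in 12 of 18 listed genes. Eif4g1, the scaffold of the cap-binding complex that recruits ribosomes, had 41 peaks in 21 of its 31 exons before a junction, at 4.23-fold to 10.3-fold with a median of 6.25. Eif4a2, a close relative of eIF4A3 that unwinds mRNA for translation, had 13 peaks in 6 of 10 such exons, at 4.24-fold to 7.13-fold. In Eif4a2, 1 of them ended on the last base of exon 1 and 1 on that of exon 5, both at a −log10 p of 400. That is the highest value in the whole list, and Hira reached it as well. As several peaks share exactly 400, it may be a ceiling set in processing, which the sources used here do not state. Eif2b5, a subunit of the exchange factor for eIF2, and Scaf4, a regulator of polyadenylation, had 8 peaks each, and Paxbp1 and Son had 6 each. Scaf4 reached 18.4-fold and Eif2b5 14.8-fold. No peak lay in an exon of the chosen transcripts of Ncbp2, Fyttd1, Rpl35a, Gspt1 or Polr2h, and Rpl24 lay outside the stretches. How the authors treated reads that match related genes equally well is not given in the sources used here.

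Chromatin and stem cell genes had peaks in 7 of 12 cases, beside the 17.9% of all coding genes, and 9 of the 12 lay wholly within a stretch. Brwd1, a bromodomain protein that reads acetylated histones, had the most peaks of the chromosome, 46 in 26 of 41 exons before a junction, from 4.03-fold to 10.9-fold with a median of 6.39. Many of them abutted, and 1 joined site held 11 peaks over 473 nt. Counted as joined sites, Prkdc and Eif4g1 had more than Brwd1. Hira, a histone chaperone, had 7 peaks, Morc3 6, Etv5, a transcription factor of the ETS family, 5 and Crebbp, a histone acetyltransferase, 4. Med15, of the Mediator complex, had 3. Dppa2 and Dppa4, which mark pluripotent cells, had no peak, nor had Dyrk1a and Tfap4, and Zbtb11 lay outside the stretches.

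Replication and repair genes had peaks in 9 of 12 cases, beside the same 17.9%, and 9 of the 12 lay wholly within a stretch. Prkdc, the catalytic subunit of the DNA-dependent protein kinase, had 34 peaks in 26 of 85 exons before a junction, from 4.09-fold to 19.2-fold. Top3b, a topoisomerase that also acts on RNA, had 15 peaks, and Spidr, a scaffold of recombination repair, had 10. Cdc45, part of the replicative helicase, had 8, including the strongest of the chromosome, shown above, and its other peaks ranged from 4.22-fold to 18.8-fold. Polq, a polymerase of end joining, had 7 and Rfc4, a subunit of the clamp loader, 3. No peak was found in Rnf168 or Donson, and Chaf1b lay outside the stretches.

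Signalling and adhesion genes had peaks in 6 of 12 cases, beside the same 17.9%, and 9 of the 12 lay wholly within a stretch. Itsn1, an endocytic scaffold, had 19 peaks, 5 of them in the 5′ untranslated region, and Dlg1, a polarity scaffold, had 17, of which 7 were in that region. Robo1 had 3 peaks, Dvl3 and Pak2 2 each, and Itgb5 1. Crkl, Socs1 and Map3k13 were among those with none, and Gsk3b and Lpp lay outside the stretches at least in part. Of 16 genes known for other tissues, 0 had a peak, beside 17.9% of all coding genes. Only 9 of the 16 lay wholly within a stretch, and 0 of the 9 had a peak, beside 22.1% of all coding genes within stretches. Those 9 were Ahsg, Fetub, Hrg and Kng1 of liver, Kcnj6 of neurons, Cldn5 of endothelium, Cd86 and Cd200r1 of immune cells and Myh11 of smooth muscle.

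Among the 10 genes with the most peaks, the remaining ones were Ttc3, a ubiquitin ligase with 29 peaks, Clcn2, a chloride channel with 28, Vps8, a subunit of an endosomal tethering complex with 26, Usp7 with 25, Smpd4 with 23, Tiam1, an activator of Rac with 20, and Abcc5, an exporter of the ABC family with 19. Itsn1 and Urb1, a ribosome biogenesis factor, also had 19 peaks, and Abcc5 was ranked above them by its highest fold change. Together the 10 genes held 291 of the 915 peaks (31.8%). Their fold changes differed. For comparison, 33.7% of all peaks on the chromosome and 32.3% of those of the series were at 8-fold or more. Vps8 had the highest median, 11.5, with 22 of 26 peaks at 8-fold or more, and Clcn2 followed with a median of 9.79 and 21 of 28. Usp7 had the lowest median, 5.25, with 4 of 25 peaks at 8-fold or more, and Eif4g1 had 4 of 41. On the mRNA maps, the last peak of Brwd1 was in exon 38 of 42, and that of Prkdc in exon 63 of 86.

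**Figure D5:**
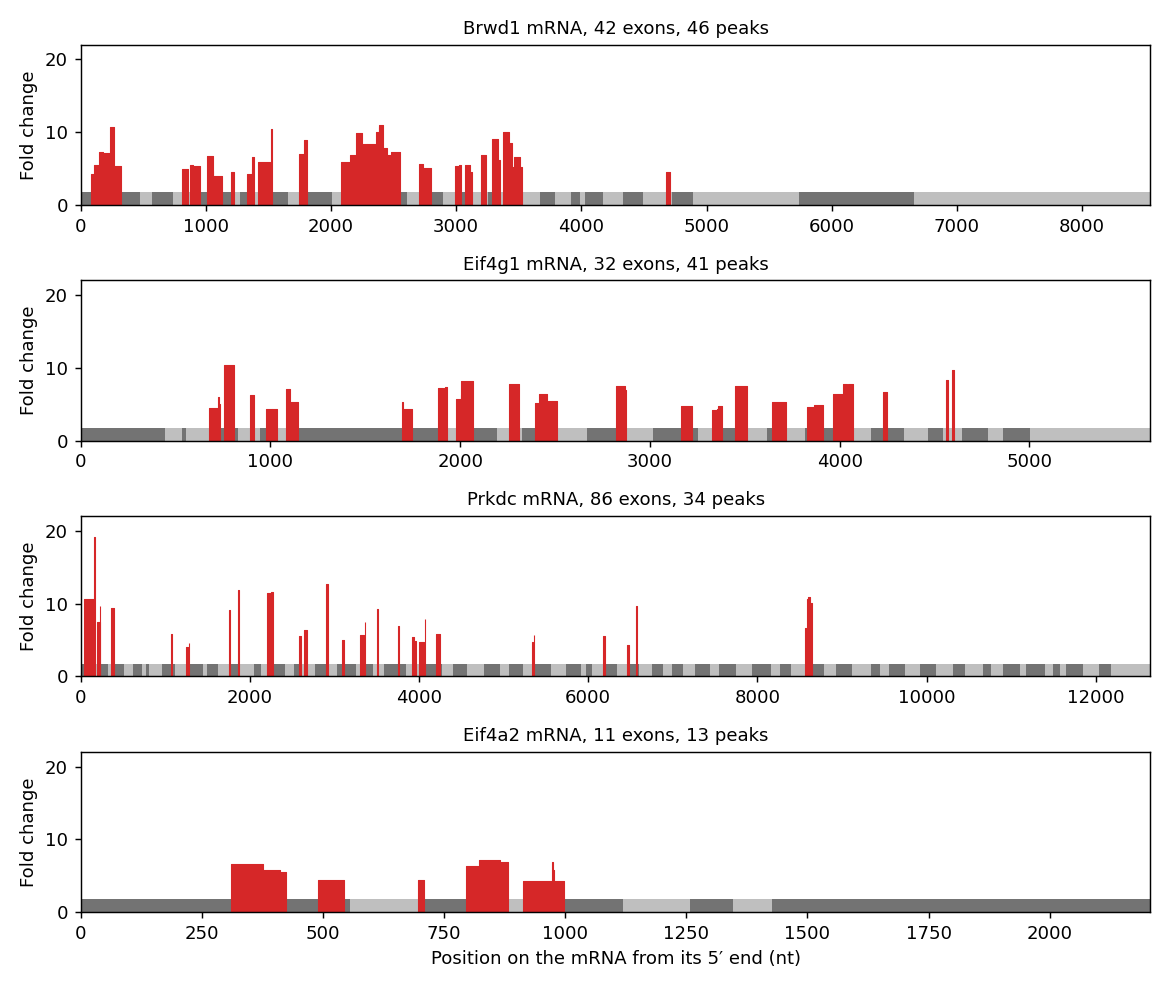
Peaks (red, height is the authors' fold change) along the spliced mRNAs of Brwd1, Eif4g1, Prkdc and Eif4a2, by distance from the 5′ end in nt; grey blocks at the base are successive exons. Brwd1 has 46 peaks, Eif4g1 41, Prkdc 34 and Eif4a2 13, and none of them lies in the last exon.

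Among listed peaks, all of them at 4-fold or more, fold changes on chromosome 16 were close to those of the whole list. At the threshold of 8-fold with p at most 0.001, 335 of 993 peaks (33.7%) were counted, against 32.3% of all 30763 peaks, and the median fold change was 6.60 against 6.57. At 16-fold with p at most 1e-05, 47 peaks were counted, beside 3.65% of all peaks. The median width was 36 nt on chromosome 16 and 32 nt in the whole list. Within exons, peaks centred in the last 50 nt had a median of 6.77 (quartiles 5.30 and 9.08, 449 peaks) and those farther upstream 6.58 (quartiles 5.19 and 8.88, 370 peaks). Within the latter, the 218 peaks centred in the first 50 nt of their exon had a median of 7.31 and a median width of 20 nt, and 40.8% of them were past the 8-fold threshold. Of the 152 in neither window, 21.7% were past it, and their median width was 54 nt.

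The 10 peaks with the highest fold change reached from 28.7-fold to 53.5-fold, and 9 of them could be placed, all in coding sequence of internal exons. After Cdc45, Paxbp1, known for linking transcription factors to histone methylation, had a peak of 34.3-fold that ended on the last base of exon 15 and a peak of 31.8-fold that began on the first base of exon 16. These face each other across 1 junction. Dop1b, of a family linked to membrane traffic, had a peak of 31.3-fold in exon 18, Dvl3, a Wnt signal transducer, one of 30.3-fold in exon 3, and Zc3h7a, a zinc finger protein, one of 29.2-fold in exon 5. Coro7 exon 21 followed at 29.2-fold, Trap1, a mitochondrial chaperone, at 29.0-fold in exon 2, and Prdm15, a zinc finger transcription factor, at 28.7-fold in exon 3. The unplaced one, at 31.3-fold, was on the plus strand at chr16:24559692-24559743, between stretches. A high fold change can rest on few input reads, and read numbers are not in the list.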

How the data were processed

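The members and gene lists were chosen with earlier results of these data known. Per the submitters' processing notes, cutadapt 1.18, STAR 2.6.1b and build mm9 were used, while no source used here names the peak caller, its test, any pooling of replicates or what the fold change is taken against. Positions were read as counted from 1 with both ends included, which the header does not say. The deposited list holds, per the file headers, a log2 fold change and a −log10 p-value for each peak, with no value per library. Fold changes here are the deposited log2 values raised as powers of 2. Shifts were found by scanning 300000 nt to either side in windows of 10 peaks, and stretches by charging 3 peaks for each change of shift. Peaks at a change were left unplaced until 3 in a row lay in exons. These settings were chosen after trying others on the same peaks: costs of 1.5, 2 and 2.5 peaks, windows of 20 peaks, and no run of 3. The run of 3 was added after peaks near one change of shift were seen to share no single shift, and it raised the unplaced peaks from 20 to 49. The analyses by exon length, exon order, junction, paired edge, joined site and base composition were also added after values had been seen.

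One GENCODE M21 transcript per gene was used, by APPRIS rank, CCDS membership and coding length. A gene is "within a stretch" where all its exons lie between the first and last peak of it. Even placement is the share of possible positions of a peak in its own exon whose centre falls in the window. Genes named are the 10 with the most peaks, those at the 10 strongest peaks, up to 6 listed genes per list with peaks, and the places with most peaks in introns. Listed genes without a peak are named, except that 1 of them, and 1 exon sequence of the 5 chosen by rule, are not reported here. The naming of the genes with last-exon peaks and of single-exon genes was decided after their values were seen. The search was tested on simulated peaks with known shifts. It failed the first criterion set, an exact shift for nearly all peaks, because in one simulated stretch several shifts fitted equally well and a neighbouring one was taken. The criterion was then relaxed to accept tied shifts, with the search unchanged. Each real stretch had 1 untied shift. Versions were Python 3.11.15, pandas 2.3.3, numpy 2.4.6 and scipy 1.17.1.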

Additional observations from a re-analysis of the deposited data

How the results depend on the processing

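Of 38 alternatives for 5 results, 24 stayed near the reported value, meaning within the 95% interval of a share or within 1.5 times a count, and 14 moved. Those intervals treat peaks of a gene as independent, and some alternatives differ by definition, so this tally is a description and no measure of robustness. The share of placed peaks that overlap a coding exon, 98.2%, was 100% where the shift is 0, 95.6% with shifts from the other strand, 88.9% for peaks wholly inside an exon, 96.9% with 1 transcript per gene, 93.4% with unplaced peaks counted as outside exons, and 90.5% for peaks of at least 16-fold and p up to 1e-05. At that level the placed peaks outside coding exons were intron peaks of Sec14l5 (18.2-fold and 21.2-fold), Bbx (23.2-fold) and Itsn1 (19.7-fold). Why these peaks lie in introns was not tested. The share near the 3′ exon end, 53.5% by peak centre, was 63.2% by the 3′ edge and 31.3% by the 5′ edge of the peak, and 32.3% or 75.3% with windows of 30 or 100 nt, which differ by construction. The 118 genes with a peak became 96 with at least 2 peaks, 76 at 8-fold and 9 where only the stretch with shift 0 was used, which holds fewer peaks. The 335 peaks past 8-fold became 993 at 4-fold and 47 at 16-fold. The list holds no peak of the chromosome under 4-fold, so 993 is every peak and was fixed in advance. All 993 also met p at most 0.001, so that limit removed none. Leaving out the distal stretch or Brwd1 gave a share near the 3′ end of 53.0% or 53.2%, and shifts from the other strand 53.4%. The search settings were chosen after trying others on these peaks. Costs of 1.5, 2 and 2.5 peaks for a change of shift, windows of 20 peaks and no run of 3 gave exon shares of 98.5%, 98.1%, 98.1%, 98.2% and 98.2%, and shares near the 3′ end of 54.1%, 53.8%, 53.8%, 53.5% and 54.3%. Those settings, and leaving out the distal stretch, using only peaks wholly inside exons, asking for 2 peaks per gene, taking the share near the 3′ end with shifts from the other strand and counting unplaced peaks as outside exons, were added after the data were seen. No paired analysis was possible because the list gives no values per replicate. Depth is unknown for every peak.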

Other observations

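A few placed peaks lay off the coding models. The 12 peaks in introns of coding genes fell into 10 places. Sec14l5 and Brwd1 had 2 each, and Bbx, Itsn1 and Muc4 were the next by fold change. The pair in Sec14l5, at chr16:5165863-5166079 on the plus strand, reached 18.2-fold and 21.2-fold, the peak in Bbx 23.2-fold and that in Itsn1 19.7-fold. The intron peaks had a median fold change of 9.86, beside 6.72 in coding sequence, and 7 of the 12 were past the 8-fold threshold, beside 281 of 833 in coding sequence and 32.3% of all peaks of the series. The 5 peaks in exons of non-coding transcripts lay in Gspt1, Tmem191c, Atp13a3 and Zfp148, and the transcripts there in Gspt1, Tmem191c and Atp13a3 are annotated as retained introns.

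Peak bases were richer in G and C than the rest of the same exons. In internal exons the share of G and C was 54.1% over 27651 bases in peaks and 49.4% over 65883 other bases, and in first exons it was 71.1% and 68.1%. The difference in internal exons lay mainly in A, at 23.6% in peaks and 28.1% outside. The motif GAAGA, known from purine-rich splicing enhancers, was in 74 of 781 peaks of at least 5 nt (9.48%), and 10.2% of all windows of the same lengths in the same exons held it. Its reverse complement TCTTC was in 5.76% of peaks and 5.32% of windows. The 2 motifs do not overlap in sequence. These are descriptions, with no test over peaks.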
